A study of Danio rerio with 26 samples.

Results

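Collagens are the main structural proteins of the extracellular matrix, and lysyl oxidases are the copper enzymes that cross-link collagen and elastin outside the cell. The genes described here are the rows of the deposited zebrafish count tables whose symbol begins as a collagen chain (col, a number, a, a number) or is lox or a lox-like name. Of 66 such rows among 32105 genes, 62 averaged at least 0.5 CPM (counts scaled to a common library size) over 26 brain libraries, and these are the members, 52 collagen chains and 10 lysyl oxidases. The limit fell between col17a1a (0.496 CPM), col4a3 (0.309), col28a2b (0.227) and col8a1a (0.143), which are outside, and col21a1 (0.662), loxl5b (0.664), the col19a1 copy ENSDARG00000096073 (0.688) and COL4A4 (0.726), the lowest inside. Within this rule, no measured value other than this minimum decided which rows are members. The rule itself was chosen with earlier results of these data known.

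Every library came from the brain of a male zebrafish kept with rotenone, which blocks mitochondrial complex I, so no unexposed level is at hand. The groups were 7 libraries of 3 year fish and 9 of 1 year fish, all at 37.5 nM rotenone, and 10 of 1 year fish at 3.75 nM. Strain was given as AB JxTu Tg(flk:mCherry), with a red fluorescent transgene named for an endothelial receptor gene, at 3 years, and as AB JxTu at 1 year. Age therefore cannot be told apart from line, nor concentration from count table, because the 3.75 nM libraries stand in a table of their own. Library totals ran such that 1 CPM equals 20.6 to 36.0 counts. Title numbers fall in a lower and a higher run, which every group spans; the labels do not say what separates them. All 19 markers of neurons were detected in every library, with a summed level of 10336 to 11789 CPM in 3 year fish, 10801 to 12558 CPM in 1 year fish at 37.5 nM and 10565 to 12641 CPM in 1 year fish at 3.75 nM.

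In the brain, collagens are concentrated in the meninges and in the basement membrane around blood vessels. Fibrillar collagens form the cross-striated fibres of connective tissue, FACIT collagens sit on the surface of those fibres, and type IV collagens form the sheet-like network of basement membranes. Fibres become stable when lysyl oxidases oxidise lysines, after which cross-links form. Members that share a symbol, and copies such as COL1A1 and col1a1a, may share reads, so their separate values are uncertain. In whole brains, fewer cells of a type and less RNA per cell cannot be told apart.

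Between brains of 3 year and 1 year fish at the same 37.5 nM, 6 members were called higher at 3 years and 1 lower. The higher ones were the FACIT collagen col14a1b, the type XXVIII chain col28a1b, the multiplexin col18a1a, and the lysyl oxidases LOXL2, loxl5b and the LOXL3 copy ENSDARG00000076306. The higher LOXL2 rested on 3 year replicates 6 and 7. The basement membrane chain COL4A4 was lower. With edgeR, calling genes at adjusted p under 0.05, that is 7 of 62 members tested (11.3%), where 7.79% of all genes tested were called. The 6 higher members are 9.68% of those tested beside 4.92% of all genes, and the 1 lower member is 1.61% beside 2.87%. None of the 62 members had groups that did not overlap, which held for 0.749% of all genes. At an unadjusted p under 0.05 edgeR counted 18 members (29.0%), where 25.6% of all genes were below it. Scaling by library totals alone shifted the calls over all genes to 1166 higher and 346 lower, beside 979 higher and 570 lower with TMM scaling, and left 6 members called. The median log2 fold change of the members was 0.13, beside 0.01 for all genes tested, and was -0.15 without 3 year replicate 6.

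The count of 7 depended on the libraries. Over all groups, 11 libraries had a high score of eye and pineal, muscle, skin, cartilage and bone, blood or pituitary markers. Without those, 4 libraries of 3 year fish and 5 of 1 year fish at 37.5 nM remained. The count was then 1 of 61, col14a1b, where 2.18% of all genes were called. Type I collagen was high in 5 libraries over all groups, with a summed level over 150 CPM, a limit chosen after seeing the data. Without those, 6 libraries of 3 year fish and 8 of 1 year fish at 37.5 nM remained. The count was then 3 of 61, where 4.63% of all genes were called. Within the lower run of title numbers 0 of 61 members passed, where 5 genes of all tested were higher and 11 lower (0.0811%). Within the higher run 2 of 62 passed, col28a1b and the fibrillar collagen col27a1b, where 5.26% of all genes were called.

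**Figure D1:**
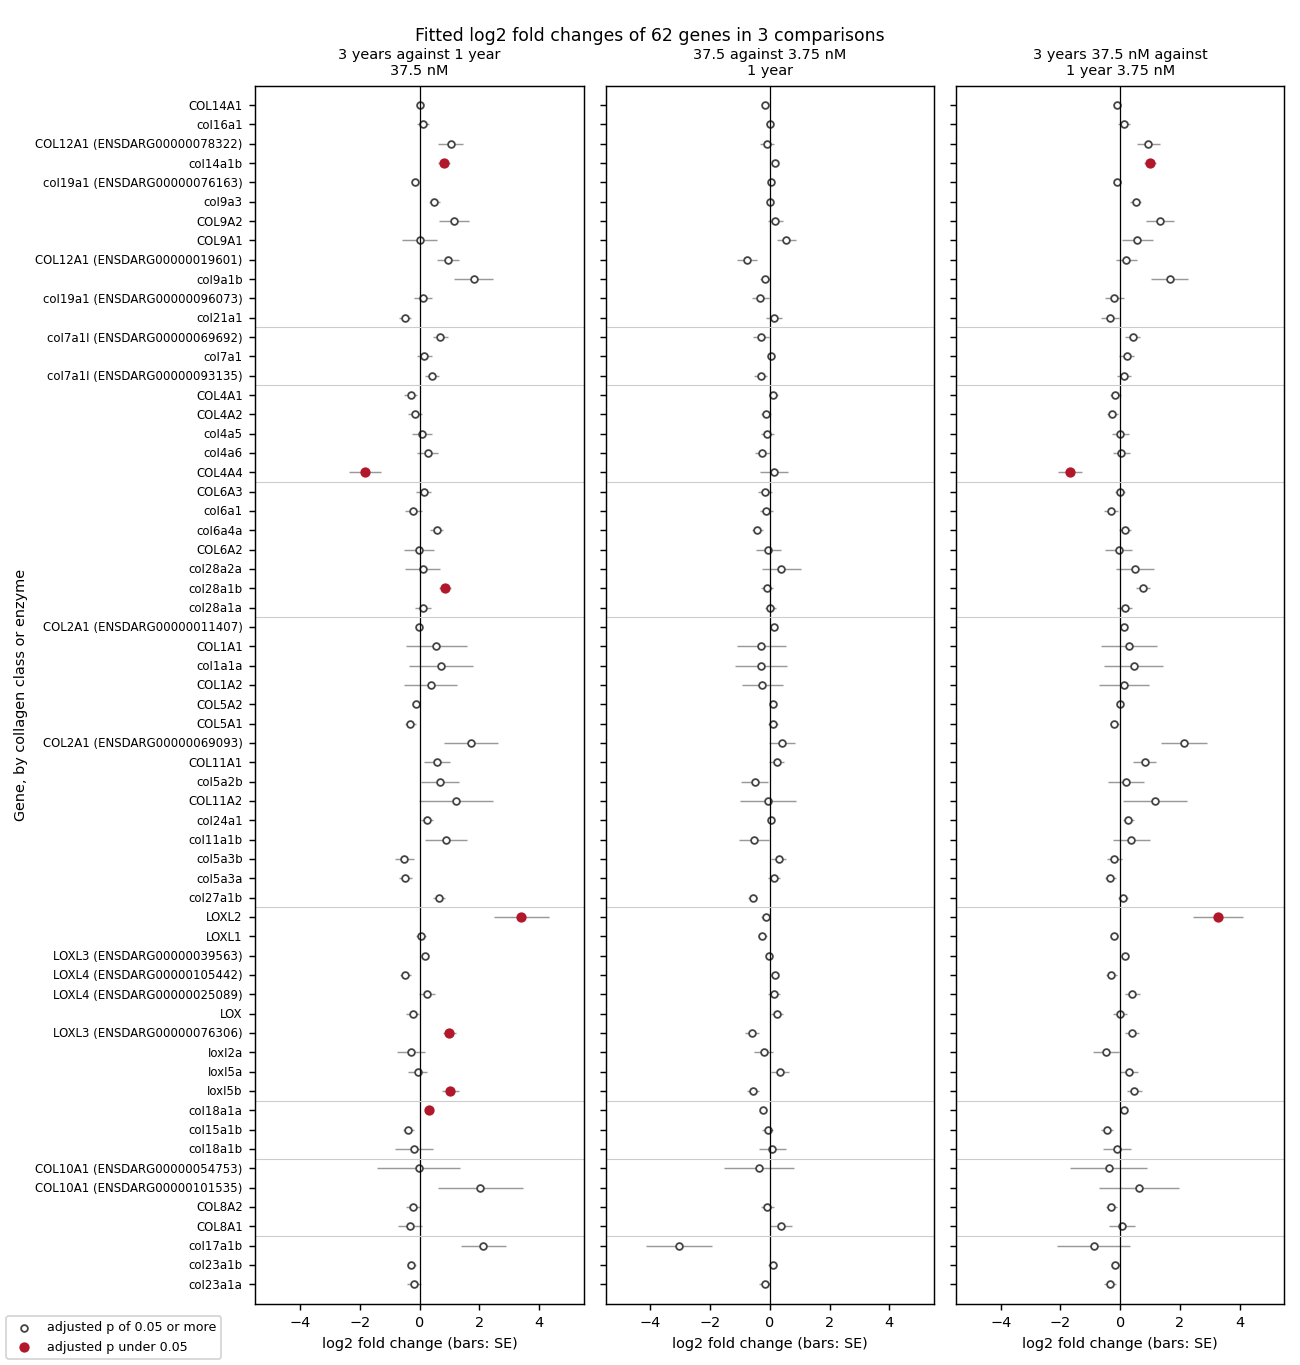
Fitted log2 fold change (x axis, with its SE as a bar) of each of 62 members (y axis, grouped by class) in the comparisons of 3 year with 1 year fish at 37.5 nM, 37.5 with 3.75 nM at 1 year, and 3 year fish at 37.5 nM with 1 year fish at 3.75 nM. Filled points passed the test: 7 in the first panel, 0 in the second and 3 in the third.

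Among the FACIT collagens, col14a1b was higher in 3 year fish. Type XIV collagen binds to the surface of fibrils and is known for regulating their diameter. Its level was 17.5, 20.02, 19.02, 25.3, 12.6, 8.97 and 7.86 CPM in the 7 libraries of 3 year fish. In 1 year fish it was 6.72, 9.01 and 10.6 CPM (lowest, median, highest) at 37.5 nM and 6.67, 7.56 and 10.6 CPM at 3.75 nM. Thus 5 of 7 libraries of 3 year fish stood above every 1 year library and replicates 6 and 7 lay within the 1 year range. The log2 fold change was 0.82 (SE 0.20, adjusted p = 0.0192) at 37.5 nM, and the call held in each of 16 fits that left out 1 library, but limma voom gave an adjusted p of 0.0536. Within the lower run of title numbers the log2 fold change was 1.13 (adjusted p = 0.0539), and within the higher run 0.55 (adjusted p = 0.290).

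Meningeal fibroblasts are a cell type that makes fibrillar collagen. Their 19 markers added up to 683 to 1023 CPM in 3 year fish (median 940 CPM), against 454 to 973 CPM in 1 year fish at 37.5 nM (median 664 CPM) and 505 to 889 CPM in those at 3.75 nM (median 767 CPM). More than any other marker, ZIC1 made up this sum, with medians of 547, 316 and 365 CPM in the same groups. Whether the ZIC1 reads of whole brains came from these cells was not tested. Medians were higher in 3 year fish than in 1 year fish at 37.5 nM for 11 of the 19 markers and lower for 8, and the mean log2 CPM of the list differed by -0.10 to 0.25 in 3 year libraries from its median over all libraries, and by -0.29 to 0.20 in 1 year libraries at 37.5 nM. None of the 18 tested there passed by edgeR, where 7.79% of all genes did. An unadjusted p under 0.05 by edgeR held for 2 of the 18, where 25.6% of all genes were below it. TCF21 was at 0 in at least 1 library. The part of meningeal fibroblasts in the level of col14a1b was not tested.

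The other FACIT members tested did not pass at this concentration, 11 of 12. At an unadjusted p under 0.05 edgeR counted 7 of the 12, col14a1b among them, where 25.6% of all genes were below it. The second type XIV row, COL14A1, was steady, at 39.9 to 69.1 CPM in 3 year fish, against 48.5 to 70.5 CPM in 1 year fish at 37.5 nM (log2 fold change 0.02, SE 0.10). Type XII collagen, the closest relative of type XIV, has rows COL12A1 ENSDARG00000078322 and ENSDARG00000019601. The first had 23.4, 4.94, 4.21, 5.73, 17.07, 34.8 and 29.3 CPM in 3 year fish, against 4.97, 7.85 and 16.96 CPM (lowest, median, highest) in 1 year fish at 37.5 nM. Of those 7 libraries 4 were above the highest 1 year library and 3 below the 1 year median, with a log2 fold change of 1.04 (SE 0.42, adjusted p = 0.132). The second COL12A1 row gave 0.95 (SE 0.36, adjusted p = 0.109).

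Type IX collagen decorates the type II fibrils of cartilage, and the fold changes of its chains moved with 1 library, 3 year replicate 6. The chain col9a1b had 12.3 CPM in 3 year replicate 6 and 0.482 to 1.1 CPM in the other 3 year libraries, against 0.440 to 0.898 CPM in 1 year fish at 37.5 nM. Its log2 fold change of 1.82 (SE 0.66, adjusted p = 0.0944) became 0.01 without that library. COL9A2 had 26.5 CPM there, and its log2 fold change of 1.15 (SE 0.50) became 0.17. The other 3 year libraries had 1.61 to 4.74 CPM of COL9A2, against 1.8 to 6.61 CPM in 1 year fish at 37.5 nM. COL9A1 moved from 0.01 (SE 0.60) to -1.26 when the same library was left out, and col9a3 from 0.50 (SE 0.18) to 0.25. A second library was high for COL9A1, 1 year replicate 7 at 37.5 nM, with 4.67 CPM against 0.632 to 1.93 CPM in the others of that group. The remaining FACIT members, col16a1, col21a1 and the col19a1 copies, had log2 fold changes from -0.48 to 0.12.

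**Figure D2:**
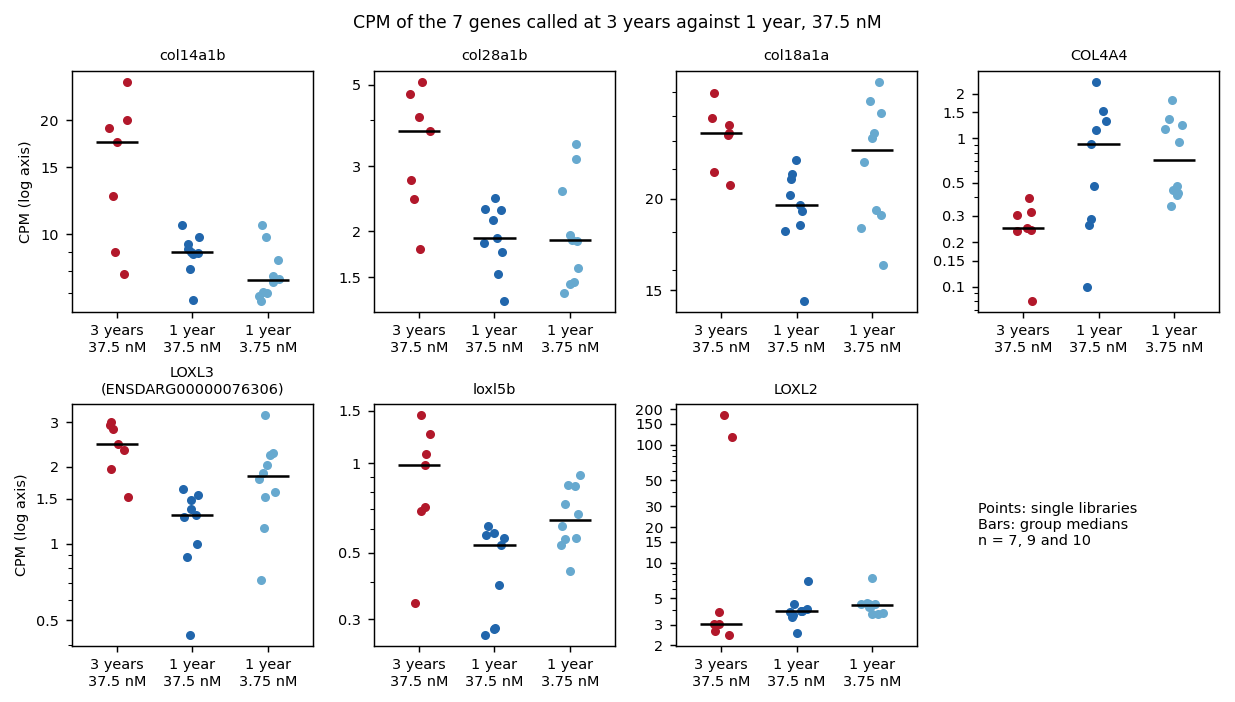
CPM (y axis, log scale, own range in each panel) of the 7 members called between 3 year and 1 year fish at 37.5 nM, with 1 point a library and a bar at each group's median. The groups overlap in every panel, and for LOXL2 the difference is carried by points at 116 and 176 CPM.

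Lysyl oxidases gave 3 of the 6 higher calls, among 10 members tested, where 4.92% of all genes were called higher. LOXL2, an enzyme that oxidises collagen IV in basement membranes, had 116 and 176 CPM in 3 year replicates 6 and 7. The other 5 libraries of 3 year fish had 2.47 to 3.87 CPM, all below the median of 3.92 CPM in 1 year fish at 37.5 nM, whose libraries ran from 2.56 to 7.01 CPM. At 3.75 nM the range was 3.66 to 7.5 CPM. The log2 fold change of 3.41 (SE 0.92, adjusted p = 0.0340) therefore came from these 2 libraries of the higher run, and within the lower run it was -0.32 (SE 0.23). Leaving out replicate 7 gave 2.42 (adjusted p = 0.109), and the call was lost in 8 of 16 fits that left out 1 library. It was lost as well with the title run as a covariate (2.54, adjusted p = 0.114) and with limma voom (1.44, adjusted p = 0.356). The related row loxl2a was high in replicate 6, at 3.69 CPM beside a group median of 0.774 CPM, but not in replicate 7, at 0.662 CPM. Its log2 fold change was -0.29 (SE 0.46).

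These libraries differed in their markers. Cartilage and bone markers summed to 240 CPM in 3 year replicate 6 and to 100 CPM in replicate 7, the group median being 100 CPM. Skin and mucosa markers summed to 396 CPM in replicate 6 and to 941 CPM in replicate 7, beside a group median of 396 CPM. Neither of these 2 sums was high in both libraries. Besides LOXL2, the member COL10A1 ENSDARG00000101535 stood over 4 times its group median of 0.290 CPM in both, at 66.6 and 8.12 CPM. Eye and pineal markers summed to 50.1 CPM in replicate 6 and to 43.1 CPM in replicate 7, beside a group median of 26.1 CPM. Their sum was 432 CPM in 1 year replicate 1 at 37.5 nM, where LOXL2 was at 3.92 CPM. In that group LOXL2 was highest in replicate 7, at 7.01 CPM, where the eye and pineal sum was 25.2 CPM. The part of other tissue in the level of LOXL2 was not tested.

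The LOXL3 copy ENSDARG00000076306, from a family branch whose mammalian member is needed for palate and spine, was called in every fit that left out 1 library. It had 2.32, 2.81, 2.46, 2.92, 1.53, 3.01 and 1.96 CPM in 3 year fish, against 0.440, 1.29 and 1.64 CPM (lowest, median, highest) in 1 year fish at 37.5 nM. Only replicate 5, at 1.53 CPM, lay within the range of those 1 year fish. In 1 year fish at 3.75 nM it had 0.718, 1.84 and 3.19 CPM, a range that takes in every 3 year library. Its log2 fold change at 37.5 nM was 0.99 (SE 0.22, adjusted p = 0.0137), and the runs of title numbers gave 1.00 and 0.98, neither past the threshold on its own. Against the 3.75 nM fish it was 0.40 (SE 0.23, adjusted p = 0.328).

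The lysyl oxidase loxl5b, a fish form of the enzyme, was detected at a low level. It had 0.339, 1.44, 1.25, 0.986, 1.07, 0.711 and 0.691 CPM in 3 year fish, against 0.266, 0.530 and 0.615 CPM (lowest, median, highest) in 1 year fish at 37.5 nM. These are 7 to 38 reads a library in 3 year fish and 7 to 16 in those 1 year fish. All 3 year libraries but replicate 1 stood above the 1 year fish at 37.5 nM, with a log2 fold change of 1.03 (SE 0.28, adjusted p = 0.0340). The runs gave 1.18 and 0.91, and 7 of 16 fits that left out 1 library lost the call. Its partner copy loxl5a gave -0.07 (SE 0.31).

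The other lysyl oxidases did not pass. LOX itself, the founding member, had 1.55 to 3.77 CPM in 3 year fish, against 1.67 to 3.85 CPM in 1 year fish at 37.5 nM (log2 fold change -0.23, SE 0.23). LOXL1, which cross-links elastin in mammals, had 9.76 to 15.4 CPM against 7.72 to 15.8 CPM (0.06, SE 0.17). The LOXL4 copies gave -0.48 (SE 0.19, adjusted p = 0.133) for ENSDARG00000105442 and 0.26 (SE 0.28) for ENSDARG00000025089. The first of these passed when 3 year replicate 6 was left out, at -0.63 (adjusted p = 0.0443). The second LOXL3 row, ENSDARG00000039563, gave 0.18 (SE 0.10, adjusted p = 0.296).

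**Figure D3:**
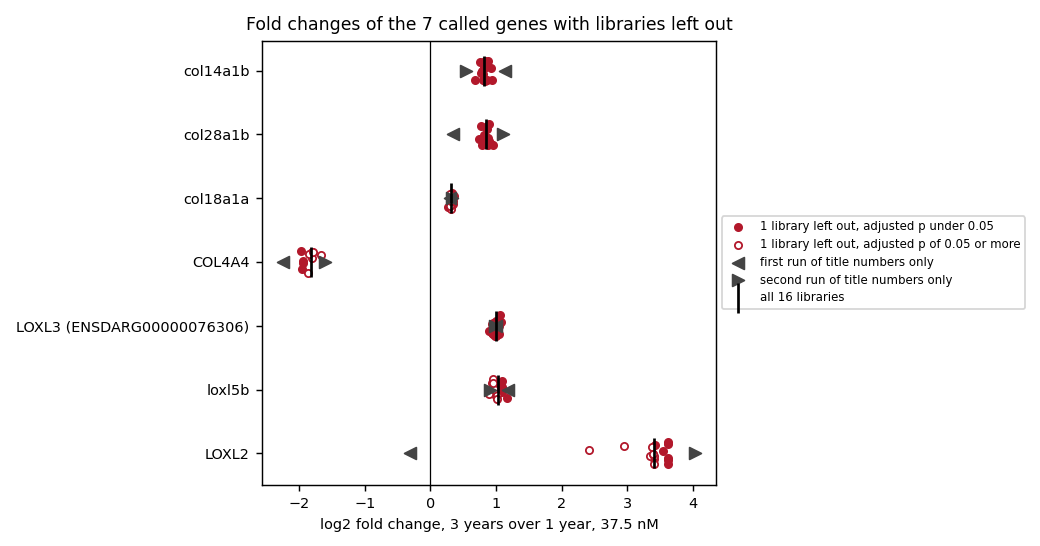
Log2 fold change of 3 year over 1 year fish at 37.5 nM (x axis) for the 7 called members, with all 16 libraries (bar), with each library left out in turn (circles, filled where adjusted p was under 0.05) and within each run of title numbers (triangles). LOXL2 spans -0.32 to 4.04 between the runs, while the LOXL3 copy gives 1.00 and 0.98.

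Of 5 basement membrane chains tested, 1 was called, lower, where 2.87% of all genes were called lower. Type IV chains form trimers in fixed combinations, with COL4A1 and COL4A2 in nearly every basement membrane, and col4a3 to col4a6 in more specialised ones. COL4A1 had 17.9, 24.6 and 42.1 CPM (lowest, median, highest) in 3 year fish, against 19.1, 35.6 and 53.4 CPM in 1 year fish at 37.5 nM. The groups overlapped over most of their range (log2 fold change -0.29, SE 0.21, adjusted p = 0.413). COL4A2 gave -0.15 (SE 0.24), col4a5 0.08 (SE 0.34) and col4a6 0.27 (SE 0.36). Of 20 endothelial markers, medians were lower in 3 year fish than in 1 year fish at 37.5 nM for 15 and higher for 5. By edgeR 2 of the 20 were called lower and 0 higher. The part of vessel cells in the levels of these chains was not tested.

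Genes of these trimers lie next to each other in the RefSeq annotation of assembly GRCz12tu (COL4A1 with COL4A2, col4a5 with col4a6, COL4A4 with col4a3). The number of COL4A2 reads per COL4A1 read was 0.682 to 0.788 in 3 year fish, 0.583 to 0.775 in 1 year fish at 37.5 nM and 0.673 to 0.959 at 3.75 nM. That of col4a6 per col4a5 was 0.755 to 1.03, 0.424 to 0.909 and 0.603 to 1.1 in the same groups. Each ratio thus moved less across the 26 libraries than the levels of the genes in it, which spanned 17.9 to 53.4 CPM for COL4A1 and 2.28 to 10.7 CPM for col4a5.

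COL4A4 was the 1 member called lower, at low counts. It had 0.242, 0.0803, 0.250, 0.303, 0.396, 0.237 and 0.317 CPM in 3 year fish, which is 2 to 14 reads a library. The 1 year fish at 37.5 nM had 0.0993, 0.920 and 2.41 CPM (lowest, median, highest), and those at 3.75 nM 0.348, 0.714 and 1.8 CPM. The 3 year libraries therefore stayed near the bottom of a wide 1 year range that reached as low as 3 reads. The log2 fold change was -1.82 (SE 0.54, adjusted p = 0.0467), with -2.25 and -1.61 within the lower and the higher run, neither past the threshold. Leaving out 1 library kept the gene above the count filter in 10 fits, of which 4 kept the call. The call also ended with library totals as the scaling (adjusted p = 0.0509), with limma voom (-1.43, adjusted p = 0.226), and without the libraries of high tissue scores (adjusted p = 0.0927) or of high type I collagen (adjusted p = 0.0691). COL4A4 met the filter through the 1 year libraries, and col4a3, its usual partner, was not tested.

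Multiplexins are basement membrane collagens that carry sugar chains and release anti-angiogenic fragments. In 3 year fish col18a1a had 20.9, 24.6 and 27.9 CPM (lowest, median, highest), against 14.5, 19.6 and 22.6 CPM in 1 year fish at 37.5 nM. All 7 libraries of 3 year fish were above that 1 year median, and 5 above its highest library. The change was small, 0.32 (SE 0.09, adjusted p = 0.0319), and was lost in 5 of 16 fits that left out 1 library. In 1 year fish at 3.75 nM the level was 16.3, 23.3 and 28.9 CPM, which takes in all 3 year libraries, and 3 year fish differed from these by 0.11 (SE 0.11, adjusted p = 0.601). The second copy col18a1b gave -0.19 (SE 0.65), and col15a1b -0.38 (SE 0.18, adjusted p = 0.203).

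Of the beaded filament and related collagens, 1 of 7 was called, higher, where 4.92% of all genes were called higher. Type XXVIII collagen is known from basement membranes around the glia of peripheral nerves in mice. In 3 year fish col28a1b had 1.79, 2.45, 2.75, 3.75, 4.1, 4.71 and 5.1 CPM, against 1.30, 1.92 and 2.46 CPM (lowest, median, highest) in 1 year fish at 37.5 nM. Of 7 libraries of 3 year fish 5 stood above every 1 year library at 37.5 nM, while 1 year fish at 3.75 nM reached 3.45 CPM, and the log2 fold change was 0.85 (SE 0.20, adjusted p = 0.0176). It held in 16 of 16 fits that left out 1 library, but the lower run gave 0.34 (SE 0.27) and the higher run 1.1 (SE 0.18, adjusted p = 0.0136). Its copy col28a1a gave 0.13 (SE 0.26).

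The related col28a2a was uneven in a way of its own. In 3 year fish it had 2.27, 4.94, 4.63, 4.40, 3.08, 0.542 and 0.806 CPM. It was at 0.119 and 0.175 CPM in 2 of the 1 year libraries at 37.5 nM and at 2.03 to 4.40 CPM in the other 7. At 3.75 nM it was at 0.177 to 0.348 CPM in 4 libraries and at 1.79 to 5.27 CPM in the other 6. No library lay between 0.806 and 1.79 CPM, and the low libraries occurred in every group (log2 fold change 0.10, SE 0.59, at 3 years).

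The type VI chains, which form beaded filaments around cells, did not pass. COL6A3 gave 0.14 (SE 0.25), col6a1 -0.20 (SE 0.29) and COL6A2 -0.01 (SE 0.51). For col6a4a the values were 4.59 to 10.996 CPM in 3 year fish, against 2.97 to 6.68 CPM in 1 year fish at 37.5 nM (0.57, SE 0.21, adjusted p = 0.1).

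Fibrillar collagens gave no call, 0 of 15 by edgeR (1 at an unadjusted p under 0.05), while DESeq2 called col27a1b. Of all genes tested by edgeR, 7.79% were called and 25.6% had an unadjusted p under 0.05. Type I collagen, the main fibre of skin, bone and meninges, is a trimer built in zebrafish from the chains of COL1A1, col1a1a and COL1A2. Summed over these genes it was 30.9, 20.7, 16.6, 22.9, 79.4, 848 and 31.0 CPM in 3 year fish. In 1 year fish at 37.5 nM it was 18.4, 40.7 and 608 CPM (lowest, median, highest), and in those at 3.75 nM 20.4, 32.8 and 504 CPM. The high values belonged to 3 year replicate 6, to 1 year replicate 7 at 37.5 nM and, at 3.75 nM, to replicates 4 (504 CPM), 6 (263 CPM), 3 (196 CPM) and 10 (104 CPM). Replicate 10 lay under the limit of 150 CPM and stayed in the fits without libraries high in type I collagen. The median of all 26 libraries was 32.1 CPM, and the chains moved together, col1a1a giving 18.3% to 37.2% of the summed reads in every library.

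Fold changes of type I collagen followed whichever library was in the fit. For col1a1a it was 0.73 (SE 1.07), -1.71 without 3 year replicate 6 and 2.28 without 1 year replicate 7. COL1A1 gave 0.56 (SE 1.02) with the same bounds at -1.66 and 2.09, and COL1A2 gave 0.38 (SE 0.89) with -1.47 and 1.52. None of these passed the test.

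The same libraries carried other cartilage and bone collagens. COL10A1, the collagen of growing cartilage in mammals and of bone cells in zebrafish, has 2 rows among the short-chain members. ENSDARG00000054753 had 72.3 CPM in 3 year replicate 6 and 0.152 to 2.86 CPM in the other 3 year libraries, against 87.1 CPM in 1 year replicate 7 at 37.5 nM and 0.142 to 6.02 CPM in the other libraries there. At 3.75 nM it had 24.1, 43.3, 48.3 and 27.2 CPM in replicates 3, 4, 6 and 10 and at most 1.17 CPM in the rest. COL11A2, a chain of the thin fibrils of cartilage, had 45.4 CPM in 3 year replicate 6 against a group median of 0.872 CPM, and 22.3 CPM in 1 year replicate 7 at 37.5 nM against 0.530 CPM.

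Type II collagen split by row. COL2A1 ENSDARG00000069093 had 77.7 CPM in 3 year replicate 6 and 1.63 to 3.00 CPM in the other 3 year libraries, against 17.6 CPM in 1 year replicate 7 and 1.52 to 2.90 CPM in the other libraries at 37.5 nM. Its log2 fold change of 1.73 (SE 0.91) became -0.84 without 3 year replicate 6. The other row, ENSDARG00000011407, ran only from 42.1 to 65.1 CPM over all 26 libraries (log2 fold change -0.02, SE 0.10). At 3.75 nM the libraries high in type I collagen had at most 4.98 CPM of ENSDARG00000069093, and replicate 2, at 32.6 CPM of type I collagen, had 4.85 CPM.

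Counted over members, 17 of 62 (27.4%) stood over 4 times their group median in 3 year replicate 6, where 1.01% of all genes of at least 0.5 CPM did. In 1 year replicate 7 at 37.5 nM it was 11 members (17.7%, against 0.611% of all genes). At 3.75 nM it was 8 in replicate 4 (12.9% against 1.65%), 7 in replicate 3 (11.3% against 0.672%) and 6 in replicate 6 (9.68% against 0.58%). In all, 18 members did so in at least 1 of 11 libraries and 44 in none. Over the 26 libraries the SD of log2 CPM had a median of 0.54 among members, 0.69 among fibrillar and 1.85 among short-chain members, and 0.26 among all genes of at least 0.5 CPM.

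**Figure D4:**
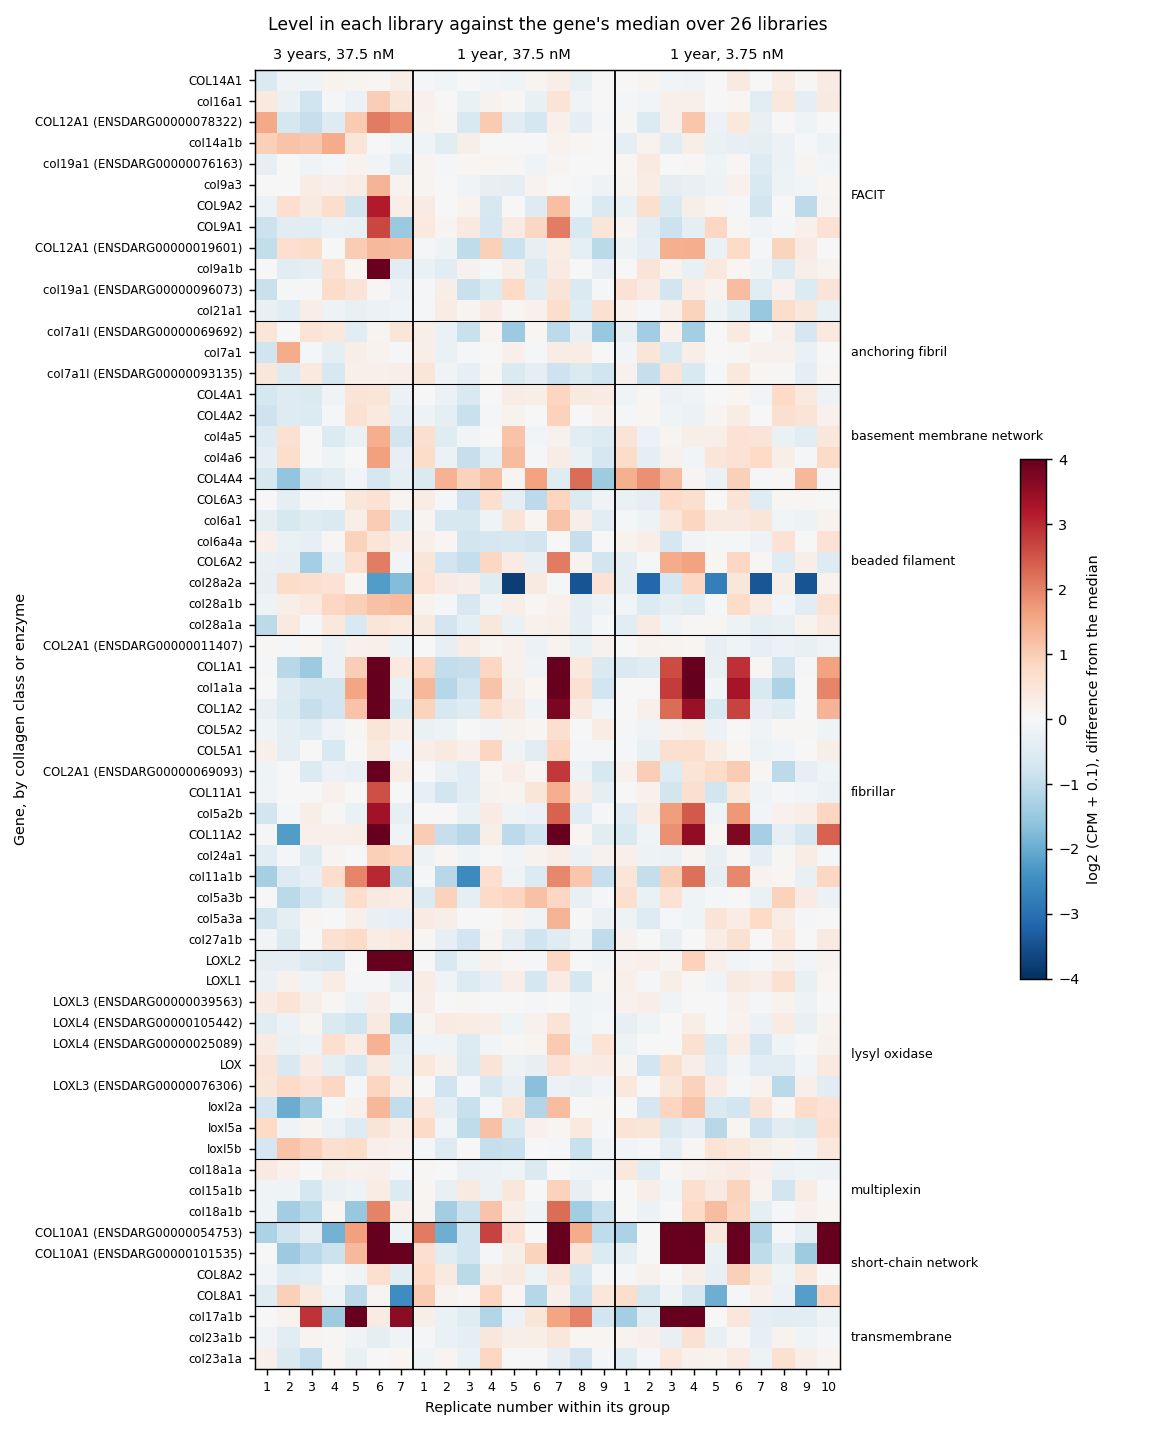
Level of each of 62 members (rows, by class) in each of 26 libraries (columns, 3 year fish first), as log2 (CPM + 0.1) less the member's own median, with the colour scale ending at 4 in each direction. Red cells of type I and X collagens and COL11A2 line up in 3 year replicate 6 and in 1 year replicate 7 at 37.5 nM. They line up as well in replicates 3, 4, 6 and 10 at 3.75 nM. Those of COL2A1 ENSDARG00000069093 do so at 37.5 nM but not at 3.75 nM.

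Markers of cartilage and bone were high in part of these libraries. The 16 genes summed to 84.1, 100 and 240 CPM (lowest, median, highest) in 3 year fish, 72.8, 91.7 and 152 CPM in 1 year fish at 37.5 nM and 84.6, 100 and 141 CPM at 3.75 nM, and the highest libraries were 3 year replicate 6, 1 year replicate 7 and, at 3.75 nM, replicate 6. Of these 16, bglap alone was at 0 in any library. The secreted bone protein spp1 had 105 CPM in 3 year replicate 6 and 26.9 CPM in 1 year replicate 7 at 37.5 nM, and bglap, osteocalcin, had 5.28 and 6.29 CPM there. In 3 year replicate 6, MATN1, cnmd and epyc were also the highest of their group. There acanb and the SOX9 copy ENSDARG00000043923 stood at their group medians, and RUNX2 was the lowest of its group. At 3.75 nM replicates 3, 4, 6 and 10, with 104 to 504 CPM of type I collagen, had 5.22, 6.17, 14.2 and 10.03 CPM of spp1. The other libraries of that group had at most 1.4 CPM of it. In replicates 3, 4, 6 and 10 bglap was at 0.774, 5, 3.42 and 1.29 CPM. In these replicates cnmd and epyc reached no higher than in the rest of the group. The mean log2 CPM of the 16 markers exceeded its median over all libraries by 0.50, 0.67, 0.86 and 0.53 in these 4, and by at most 0.11 in the rest of the group. How far such tissue sets these collagen levels was not tested.

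**Figure D5:**
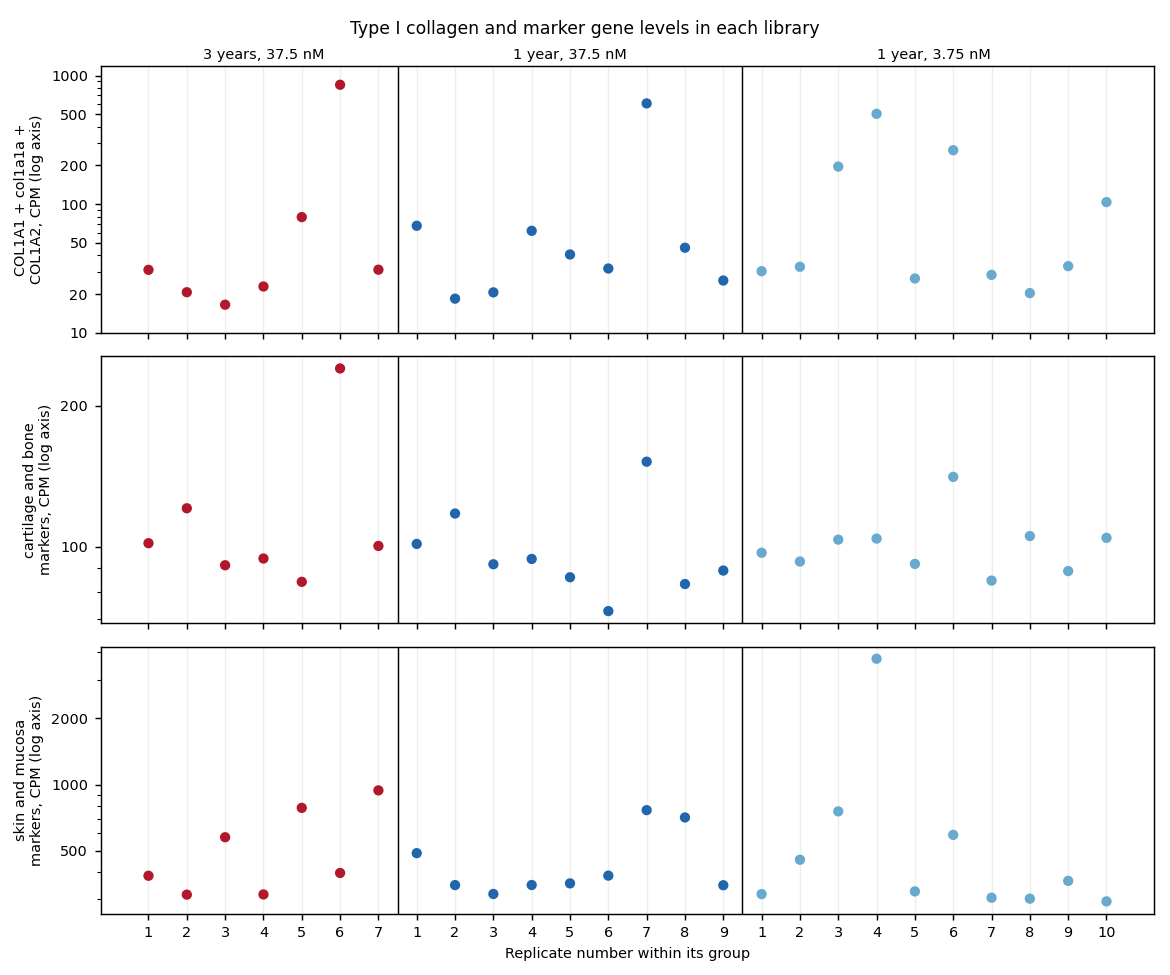
Summed CPM (y axes, log scale) of type I collagen, of cartilage and bone markers and of skin and mucosa markers in each library (x axis, replicates by group, 3 year fish first). The type I peaks at 848 and 608 CPM stand over the cartilage and bone peaks at 240 and 152 CPM, and the skin peak of 3738 CPM belongs to replicate 4 at 3.75 nM.

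Of the other fibrillar chains, COL11A1, col11a1b and col5a2b had 25.9, 14.5 and 24.8 CPM in 3 year replicate 6, over 4 times their group medians. The rest stayed under 4 times their group medians in every library. COL5A1 and COL5A2, which start the assembly of type I fibrils, gave -0.30 (SE 0.19) and -0.12 (SE 0.15). For col24a1 the log2 fold change was 0.24 (SE 0.20). It had 7.08 and 6.42 CPM in 3 year replicates 6 and 7 and 2.50 to 3.83 CPM in the other 3 year libraries, against at most 4.41 CPM in 1 year fish. The type V chains col5a3a and col5a3b, gave -0.47 (SE 0.23) and -0.51 (SE 0.31). For col27a1b, a cartilage collagen needed for the zebrafish spine, the level was 1.85, 3.35 and 4.75 CPM (lowest, median, highest) in 3 year fish, against 1.29, 2.1 and 2.96 CPM in 1 year fish at 37.5 nM. Its log2 fold change of 0.65 (SE 0.21) missed the threshold (adjusted p = 0.0631) and passed in 4 of 16 fits that left out 1 library. At 3.75 nM it had 2.22 to 4.23 CPM, and 3 year fish differed from those by 0.08 (SE 0.17).

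The epithelial collagens differed from each other in which libraries were high. Type XVII collagen anchors basal skin cells to the basement membrane. Its gene col17a1b had 0.581, 0.642, 4.84, 0.152, 12.1, 0.745 and 7.98 CPM in 3 year fish, against 0.199 to 2.58 CPM in 1 year fish at 37.5 nM. At 3.75 nM it had 53.8 CPM in replicate 4, 14.7 CPM in replicate 3 and 0.163 to 0.812 CPM in the other 8. Skin and mucosa markers summed to 3738 CPM in that replicate 4 and 755 CPM in replicate 3, beside a group median of 346 CPM, and in 3 year fish to 783, 941 and 576 CPM in replicates 5, 7 and 3. In 1 year fish at 37.5 nM the sum was 765 CPM in replicate 7 and 709 CPM in replicate 8, where col17a1b was at 1.9 and 2.58 CPM. Of those 18 markers krt17 and agr1 were at 0 in at least 1 library, while the basal keratin krt5 had 1675 CPM in replicate 4 at 3.75 nM. The part of skin in the level of col17a1b was not tested.

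Type VII collagen forms the anchoring fibrils beneath that layer. Its gene col7a1 had 22.4 CPM in 3 year replicate 2 and 4.55 to 9.55 CPM in the other 3 year libraries, against 6.65 to 9.74 CPM in 1 year fish at 37.5 nM. It had 9.49 CPM in the skin-rich replicate 4 at 3.75 nM, within the range of 5.17 to 11.2 CPM of its group. That library was rich in skeletal muscle markers as well, at 2228 CPM beside a group median of 64.9 CPM. The row col7a1l ENSDARG00000069692 had 8.20 to 16.1 CPM in 3 year fish, against 3.77 to 12.8 CPM in 1 year fish at 37.5 nM (0.70, SE 0.25, adjusted p = 0.0990). Among short-chain collagens of vessels and cornea, COL8A1 and COL8A2 gave -0.32 (SE 0.40) and -0.22 (SE 0.25). The transmembrane collagens col23a1a and col23a1b gave -0.17 (SE 0.23) and -0.27 (SE 0.15).

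Concentration at 1 year gave no call. Of 61 members tested between 37.5 and 3.75 nM, 0 passed by edgeR, DESeq2 or limma voom, and 0 had groups that did not overlap, where 0.0508% of all genes were called and 0.0355% did not overlap. At an unadjusted p under 0.05 edgeR counted 6 members (9.84%), where 9.25% of all genes were below it, and the median log2 fold change was -0.07, beside -0.01 for all genes. COL10A1 ENSDARG00000101535 did not meet the count filter. The largest difference, -3.04 for col17a1b (SE 1.12, adjusted p = 0.483), came from replicates 3 and 4 at 3.75 nM. It was 0.87 without the libraries high in type I collagen, which include these. Smaller ones were COL12A1 ENSDARG00000019601 at -0.76 (SE 0.33), the LOXL3 copy ENSDARG00000076306 at -0.60 (SE 0.24), col27a1b at -0.58 (SE 0.16, adjusted p = 0.313) and loxl5b at -0.57 (SE 0.20).

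The comparison of 3 year fish at 37.5 nM with 1 year fish at 3.75 nM gave 3 calls among 62 members (4.84%, where 6.68% of all genes were called). It shares its 3 year libraries with the first and its 1 year libraries with the second, so it is no independent repeat. Called higher were 2 members (3.23%, against 4.43% of all genes), col14a1b at 1.00 (SE 0.20, adjusted p = 0.0058) and LOXL2 at 3.28 (SE 0.84, adjusted p = 0.0268). COL4A4 was the 1 member called lower (1.61%, against 2.25%), at -1.68 (SE 0.39, adjusted p = 0.0163). No member had groups that did not overlap, which held for 0.627% of all genes. LOXL2 again lost its call without 3 year replicate 6 or 7 and gave -0.79 (SE 0.23) within the lower run. With 1 library left out, col14a1b and COL4A4 were called in 17 of 17 fits. COL4A4 had 2 to 14 reads a library in 3 year fish and again met the filter through the 1 year libraries. With limma voom neither LOXL2 (1.29, adjusted p = 0.406) nor COL4A4 (adjusted p = 0.0525) was called, and with the title run as a covariate LOXL2 was not (2.49, adjusted p = 0.156). The 3 calls became 2 without the libraries of high tissue scores (col14a1b, and COL4A2 at -0.76), where 2.93% of all genes were called. They became 2 as well without those high in type I collagen (col14a1b, and col17a1b at 3.44), where 4.88% of all genes were called. Within the runs col14a1b gave 1.19 (adjusted p = 0.0210) and 0.85 (adjusted p = 0.261), and COL4A4 gave -2.40 and -1.12, neither past the threshold. For col28a1b the difference was 0.77 (SE 0.23, adjusted p = 0.0546).

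Genes that make, fold, degrade or sense collagen gave few calls. Between 3 year and 1 year fish at 37.5 nM, edgeR called 7.79% of all genes tested (4.92% higher). An unadjusted p under 0.05 by edgeR held there for 25.6% of all genes. Of 31 genes of collagen maturation (prolyl and lysyl hydroxylases, chaperones, secretion and processing enzymes) none passed by edgeR between 3 year and 1 year fish at 37.5 nM (9 at an unadjusted p under 0.05), with a median log2 fold change of -0.01. Nor did any of 16 genes of breakdown (median 0.41, 8 at an unadjusted p under 0.05), 16 receptors (median 0.15, 5 so) or 28 fibril partners (median -0.08, 3 so). Among 17 basement membrane partners 1 rose, HSPG2, the heparan sulfate proteoglycan perlecan. It had 17.9, 35.3 and 39.3 CPM (lowest, median, highest) in 3 year fish, against 13.3, 17.7 and 32.4 CPM in 1 year fish at 37.5 nM (log2 fold change 0.64, SE 0.18, adjusted p = 0.0404).

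Of 19 genes of TGF-beta signalling, a main inducer of collagen genes, 1 rose and 2 fell. Of all genes tested, 4.92% were called higher and 2.87% lower. The receptor TGFBR2 ENSDARG00000059363 had 4.21, 7.01 and 8.34 CPM in 3 year fish, against 3.51, 4.35 and 5.34 CPM in 1 year fish at 37.5 nM (0.55, SE 0.14, adjusted p = 0.0226). The inhibitors SMAD7 and SMAD6 ENSDARG00000053209 gave -0.36 (SE 0.09, adjusted p = 0.0163) and -0.33 (SE 0.10, adjusted p = 0.0450). SMAD7 had 21.7 to 33.7 CPM in 3 year fish, against 30.0 to 39.7 CPM in 1 year fish at 37.5 nM.

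Against 1 year fish at 3.75 nM, MMP14 ENSDARG00000008388, a membrane-bound collagenase, was 1 of 16 breakdown genes that rose, with 16.6, 22.8 and 35.0 CPM (lowest, median, highest) in 3 year fish against 12.8, 14.9 and 21.8 CPM (0.55, SE 0.15, adjusted p = 0.0315). CREB3L1, a transcription factor that drives type I collagen in bone of mice, was 1 of 31 maturation genes that fell (-0.49, SE 0.14, adjusted p = 0.0464). Of all genes tested in that comparison, 4.43% were called higher and 2.25% lower. Between concentrations at 1 year none of the genes in these lists passed.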

How the data were processed

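The authors deposited whole-number read counts per Ensembl gene, not normalized, in 2 tables. The submitters' processing notes name GRCz10 and the tools featureCounts 1.4.6-p4, STAR 2.4.1d and CASAVA 1.8.2. The TruSeq v2 kit named in the labels does not mark strand, so overlapping and antisense genes cannot be told apart. Neither the annotation release nor the treatment of multiply mapped reads is given in the sources used here. The deposited RPKM tables were not used.

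The count filter (filterByExpr) was run on all 32105 genes, per comparison on its 2 groups alone. It kept 19887 genes for 3 years against 1 year at 37.5 nM, 19691 between concentrations and 19952 in the third comparison. These were fitted with edgeR 4.0.16 (R 4.3.3, TMM, robust quasi-likelihood F test, Benjamini-Hochberg over all genes tested, calls at 0.05), after the fit was tested on simulated data. SE is the log2 fold change over the square root of F. CPM use TMM library sizes over 26 libraries, and marker scores are averages of log2 CPM (prior count 2). Alternatives used DESeq2 1.42.0, limma 3.58.1, other scalings, filters, subsets and single libraries left out. Replicate numbers are names in accession order and pair nothing.

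Each title gives a fish number of its own, and p-values measure the spread between these samples. The members, gene lists, tests and markers were chosen with earlier results of these data known. Members are named if called in any comparison, among the 3 of highest mean CPM in a class, among the 5 of largest log2 fold change in a comparison, set apart in 1 library, or lysyl oxidases (47 in all), and others were chosen after their values were seen. From each other list, up to 4 called genes are named. Symbols were looked up by Ensembl identifier, and those in capitals lack the letter of duplicated copies. Tables were processed in Python 3.11.15 with pandas 2.3.3 and drawn with matplotlib 3.10.9.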

Additional observations from a re-analysis of the deposited data

Results flagged for a closer look

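Within a group, a single library was set apart on log2 CPM in 22 combinations of member and group, by the size of its gap to the next library. Chance sets apart about 1 group in 20 in this way, but the members were named partly for a library that stands apart, and they share libraries, so the count is not set against that share.

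In 3 year replicate 6 the level was far above the other 3 year libraries for 11 members: col1a1a (316 CPM), COL1A1 (288 CPM), COL1A2 (244 CPM), COL2A1 ENSDARG00000069093 (77.7 CPM), COL11A2 (45.4 CPM), COL9A2 (26.5 CPM), COL11A1 (25.9 CPM), col5a2b (24.8 CPM), col9a1b (12.3 CPM), COL9A1 (7.32 CPM) and COL8A2 (7.28 CPM). In 1 year replicate 7 at 37.5 nM it was so for 7 members: COL1A1 (214 CPM), col1a1a (203 CPM), COL1A2 (191 CPM), COL11A2 (22.3 CPM), COL10A1 ENSDARG00000101535 (21.2 CPM), COL2A1 ENSDARG00000069093 (17.6 CPM) and col5a2b (12.2 CPM).

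The other 4 were single values. LOXL2 stood at 7.5 CPM in replicate 4 at 3.75 nM, beside a group median of 4.39 CPM. LOXL3 ENSDARG00000039563 stood at 9.56 CPM in 1 year replicate 1 at 37.5 nM, beside a median of 7.82 CPM. Set apart on the low side were LOXL3 ENSDARG00000076306, at 0.44 CPM in 1 year replicate 6 at 37.5 nM, and COL4A4, at 0.0803 CPM in 3 year replicate 2.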

How the results depend on the processing

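Between 3 year and 1 year fish at 37.5 nM, 7 members were called. The count was 11 with DESeq2, which called 11.8% of all genes, and 4 with limma voom, which called 7.97%. Within the lower and the higher run of title numbers it was 0 and 2 (0.0811% and 5.26% of all genes). Without libraries of high tissue scores it was 1 (2.18% of all genes). Without those high in type I collagen, a set chosen after seeing the data, it was 3 (4.63% of all genes). With 1 library left out it was 4 to 8. It fell to 4 without 3 year replicate 4 or 1 year replicates 2, 3, 5 or 8. The median log2 fold change of members (0.13) was -0.18 in the lower run and -0.15 to 0.29 with 1 library left out. LOXL2 turned to -0.32 in the lower run and to -0.33 without libraries of high tissue scores, and COL9A1 was called at -1.17 by DESeq2. Against 1 year fish at 3.75 nM, the 3 calls became 6 with DESeq2 (9.79% of all genes) and 7 with all 26 libraries in 1 fit (8.80%). They became 1 and 0 within the lower and the higher run (1.28% and 1.27% of all genes), and 2 to 4 with 1 library left out. The median (0.12) was -0.27 in the lower run, -0.18 without libraries of high tissue scores, and -0.15 to 0.14 with 1 library left out. There LOXL2 turned to -0.79 in the lower run and to -0.54 without libraries of high tissue scores, COL11A2 was called at -2.03 by DESeq2, and col17a1b was called at 3.44 without the libraries high in type I collagen (-0.89 with all). Between concentrations the count stayed at 0 under every alternative run, with medians from -0.13 to 0.03 when 1 library was left out. The causes of these shifts were not tested, other than that subsets hold fewer samples. No paired analysis was possible because replicate numbers are names in accession order. Members under about 1 CPM rest on few reads, 2 to 69 for COL4A4 at 37.5 nM.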
